A study of Mus musculus with 6 samples.

Results

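Fatty acid binding proteins and the enzymes that activate fatty acids were examined in RNA from isolated alveolar type II cells, which produce lung surfactant. The set comprised 10 genes, namely Fabp1, Fabp3, Fabp4 and Fabp5, the acyl-CoA synthetase genes Acsl1, Acsl3, Acsl4 and Acsl5, and the fatty acid transport protein genes Slc27a3 and Slc27a4. Every probe set whose platform annotation named exactly 1 of these genes was taken, which gave 19 of the 45101 probe sets on the array, for 9 of the 10 genes and of 18194 genes named this way in all. No probe set was named for Acsl1 alone, so Acsl1 was not analysed here. Of the 19 probe sets, 10 measured Fabp genes, 7 measured Acsl genes and 2 measured Slc27a genes.

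Insig1-deleted mice (Insig1 ∆/∆ /Insig2 -/-) carried SpC-rTTA and Otet-CRE together with Insig1 flox/flox and Insig2-/-. Control mice were Insig1 flox/flox and Insig2-/- and lacked either SpC-rtTA or Otet-CRE. All were 2 months old, and doxycycline was given from E6.5 to E12.5 according to both groups' labels. By genotype both groups were thus Insig2-/- and only the deleted group had a complete Cre system. Cre was driven through the promoter of the surfactant protein C gene, which is active in the lung epithelium. Effects of the complete Cre system and of losing Insig1 cannot be told apart. Each of the 6 arrays held 1 pool of RNA, with 3 independent pools for each genotype per the series' design text, and how many mice made up a pool is not stated in the labels. Values are probe set signals (MAS5, linear scale, arbitrary units) in deleted pools 1, 2 and 3 and then in control pools 1, 2 and 3, and log2 fold changes are given as deleted minus control with their standard error (SE).

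Long-chain fatty acids are poorly soluble in the cytosol, where fatty acid binding proteins carry them between membranes, lipid droplets and the nucleus. Acyl-CoA synthetases join them to coenzyme A, the step that commits a fatty acid to phospholipid, triglyceride or oxidation, and fatty acid transport proteins aid uptake and have acyl-CoA synthetase activity of their own. Type II cells use these acyl-CoAs to build the phosphatidylcholine of surfactant. INSIG proteins hold the SREBP transcription factors, which drive sterol and fatty acid synthesis, in the endoplasmic reticulum.

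Insig1 itself had signals at 1252.5, 1442 and 1750.4 in deleted pools and 2300.1, 3325 and 2959.5 in control pools (log2 -0.95 ± 0.19, adjusted p = 0.096 by limma). The groups did not overlap, and the labels do not say whether this probe set lies within the floxed segment. Control pool 3 stood apart on the leading principal component of log2 signal, at -61.5, where the other 5 arrays lay between -7.64 and 24.5. Arrays of 1 group correlated at 0.945 to 0.978 in log2 signal and arrays of different groups at 0.948 to 0.963, so no array duplicated another. All 13 type II cell markers with a probe set of their own name, surfactant protein genes among them, lay above the filter used below, and their summed signal was 908035 to 1081597 in deleted pools and 902387 to 1091853 in control pools.

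Of the 19 probe sets, 17 lay at or above the 40th percentile of mean log2 signal (log2 8.08, a signal of 271) and were tested by limma together with all 27022 probe sets past that filter. In this fit 0 of the 17 passed an adjusted p of 0.05, against 0.322% of all probe sets tested, and 9 of 17 had an unadjusted p under 0.05, against 10.2% of all probe sets. In 7 of the 17 every deleted pool lay above every control pool, which 7.69% of all probe sets did, and these belonged to Fabp4, Fabp5, Acsl4 and Acsl5. In 1 of the 17, of Fabp1, the deleted pools were all lower than the control pools, which 7.88% of all probe sets did. Probe sets of 1 gene measure 1 transcript pool, so these counts are not counts of independent genes. The median log2 fold change of the 17 was 0.083, against -0.023 over all probe sets. With 1 probe set per gene, the brightest, Fabp4 alone of the 8 genes tested rose (adjusted p = 0.034 by limma over 12952 genes), where 0.625% of all genes passed in that direction. None of the 8 fell at that threshold, where 0.0232% of all genes did, and 4 of the 8 had an unadjusted p under 0.05, against 12.1% of all genes.

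**Figure D1:**
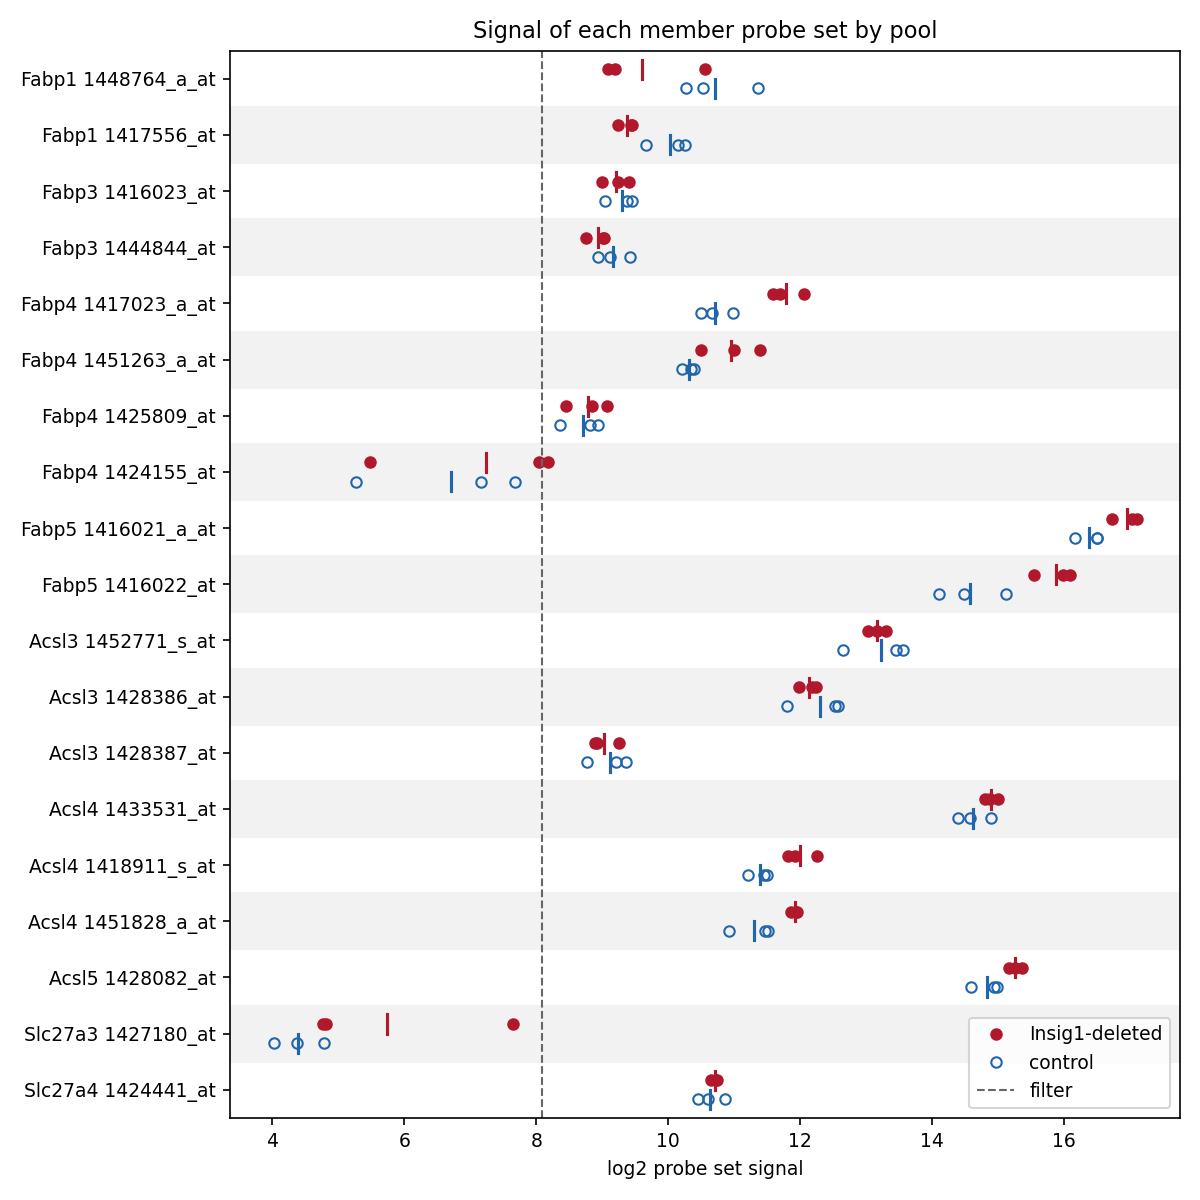
Log2 signal of each of the 19 member probe sets (rows) in every pool, with filled red circles for Insig1-deleted pools, open blue circles for control pools and short bars for group means. The dashed line marks the filter at log2 8.08, below which the means of 1 Fabp4 and the Slc27a3 probe set lie, and the 3 deleted pools lie wholly above the control pools for 7 probe sets of Fabp4, Fabp5, Acsl4 and Acsl5.

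Fabp4 encodes the fatty acid binding protein of adipocytes, which macrophages and capillary endothelial cells also make. Its brightest probe set (1417023_a_at) had signals at 4257, 3304 and 3088 in deleted pools and 1439, 1613 and 2018 in control pools. The lowest deleted pool lay well above the highest control pool. The mean was 3550 ± 622 in deleted pools and 1690 ± 297 in control pools (SD, n = 3 each). The fold of the mean log2 values was 2.10, a log2 fold change of 1.07 ± 0.18 (95% interval 0.67 to 1.47). Its adjusted p of 0.0501 by limma over all probe sets missed the threshold, while that of 0.034 by limma over 1 probe set per gene passed it. The gene-level call was lost without deleted pool 1, 2 or 3 (adjusted p of 0.151, 0.139 and 0.109) or control pool 1 (0.141), and over all 15 alternative settings the adjusted p ran from 0.00665 to 0.151.

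The dimmer Fabp4 probe sets had smaller log2 fold changes. Probe set 1451263_a_at had 2674, 1439 and 2037 in deleted pools and 1303, 1179 and 1346 in control pools. The groups did not overlap here either, but deleted pool 2 lay close to the controls, and the log2 fold change was 0.64 ± 0.22 (adjusted p = 0.37 by limma), or 0.43 without deleted pool 1. Probe set 1425809_at had 349, 457 and 538 in deleted pools and 451, 490.5 and 327 in control pools. The groups overlapped, with a log2 fold change of 0.083 ± 0.28 that changed sign without deleted pool 3 (-0.061) or control pool 3 (-0.092) and was 0.25 without deleted pool 1. Probe set 1424155_at lay below the filter, with 44.5, 263 and 289.6 in deleted pools and 205.5, 38.5 and 143 in control pools, and it was not tested in the fit of filtered probe sets.

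Fabp5, the epidermal-type fatty acid binding protein that type II cells and alveolar macrophages make, was measured by a pair of probe sets among the brightest of the array. The brighter one (1416021_a_at) had signals at 108324.5, 132822 and 140021.5 in deleted pools and 92151, 73329 and 91918 in control pools. Every deleted pool was higher, and the highest value reached 80.05% of the brightest probe set on its array. The mean was 127056 ± 16617 in deleted pools and 85799 ± 10801 in control pools (SD, n = 3 each). The fold of the mean log2 values was 1.48, a log2 fold change of 0.57 ± 0.14 (95% interval 0.25 to 0.89, adjusted p = 0.23 by limma). The dimmer one (1416022_at) had 47614, 69418 and 64632 in deleted pools and 35526.5, 17639 and 22952 in control pools. Its groups did not overlap, and the spread was wide in both. Its means were 60555 ± 11460 in deleted pools and 25373 ± 9186 in control pools (SD, n = 3 each). The fold of the mean log2 values was 2.46, a log2 fold change of 1.298 ± 0.24 (95% interval 0.76 to 1.84), and the adjusted p of 0.077 by limma missed the threshold. It passed without control pool 1 (log2 1.57, adjusted p = 0.027), the control pool with the highest value, and with array weights (0.046), in a range of 0.027 to 0.37 over 14 alternatives. In deleted pools the order of the pools differed between the genes, since pool 1 had the highest Fabp4 signal on its brightest probe set and the lowest signal on both Fabp5 probe sets.

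In the RefSeq table of assembly GRCm38.p6 the protein-coding genes from Fabp5 to Fabp12 on mouse chromosome 3 are, in order, Fabp5, Pmp2, Fabp9, Fabp4 and Fabp12, all 5 of this protein family. Pmp2, which encodes a myelin fatty acid binding protein, and Fabp9, which encodes a testis form, lay below the filter. On the brightest Fabp12 probe set the log2 fold change was 0.21 ± 0.26, and its groups overlapped. The same table lists the pseudogenes Fabp5l2 and Fabp3-ps1, and binding of their transcripts to the Fabp5 and Fabp3 probe sets was not tested.

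Fabp1, the liver-type binding protein, had the only log2 fold changes below -0.5 in the set. Probe set 1417556_at had signals at 701, 694 and 603 in deleted pools and 813, 1136 and 1215 in control pools. The deleted pools were all lower than the control pools, by a log2 fold change of -0.64 ± 0.21 (95% interval -1.11 to -0.18, adjusted p = 0.34 by limma). The brighter probe set (1448764_a_at) had 1501, 544 and 582 in deleted pools and 1228, 1471 and 2615 in control pools. Deleted pool 1 lay within the control range there, so the groups overlapped, and the log2 fold change of -1.10 ± 0.40 had an adjusted p of 0.41 (limma). Without control pool 3, which had the highest value on both probe sets, the log2 fold changes were -0.53 and -0.78.

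The Fabp1 promoter is shown because Fabp1 was the 1 gene of the set whose 95% intervals lay below 0, and because Fabp1 is a known target of PPAR nuclear receptors, which bind elements built from AGGTCA cores. The window runs from 250 bases before to 50 bases after the RefSeq start site (build GRCm38.p6, 300 bases, 5′ to 3′ in the gene's direction). Capitals mark matches on either strand to 4 motifs, the AGGTCA core (read as TGACCT on the other strand), the sterol regulatory element TCACNCCAC, the E-box CACGTG and the CCAAT box CCAAT.
Fabp1 promoter, chr6:71199629-71199928, plus strand: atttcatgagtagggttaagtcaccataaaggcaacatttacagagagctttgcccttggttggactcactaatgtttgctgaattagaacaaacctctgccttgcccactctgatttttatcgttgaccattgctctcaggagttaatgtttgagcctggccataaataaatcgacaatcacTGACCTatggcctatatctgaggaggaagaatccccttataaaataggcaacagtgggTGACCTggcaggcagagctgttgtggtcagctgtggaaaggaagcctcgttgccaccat
It held 2 AGGTCA cores, both on the minus strand, starting at positions -67 and -9 from the start site, and none of the other 3 motifs. An AGGTCA core was present in 16.3% of the 32851 promoter windows of this length. A match describes the letters of this window, and whether a receptor binds there was not tested. Only single cores were searched for. Of 8 tested genes of the PPAR receptors and their partners, 0 passed the threshold by limma and 0 had an unadjusted p under 0.05. Their median log2 fold change was 0.016, with Ppargc1b at 0.47 ± 0.35 and Ppara at 0.22 ± 0.17. These are RNA levels, and the activity of the receptors was not measured.

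Fabp3, the heart-type binding protein, showed little difference on either probe set. Probe set 1416023_at had 510.3, 675 and 601 in deleted pools and 664, 528 and 701 in control pools. Probe set 1444844_at had 430.3, 520.3 and 516 in deleted pools and 554, 685 and 490.3 in control pools. The groups overlapped on both, with log2 fold changes of -0.083 ± 0.22 (95% interval -0.57 to 0.41) and -0.23 ± 0.23 (-0.74 to 0.28).

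Acsl4, a synthetase that prefers arachidonic and other polyunsaturated acids, had positive log2 fold changes on all 3 of its probe sets. Probe set 1418911_s_at had 4872, 3855 and 3607 in deleted pools and 2872, 2799.5 and 2366 in control pools. Probe set 1451828_a_at had 3913, 3947 and 3704 in deleted pools and 2818, 2925 and 1937 in control pools. Both had groups that did not overlap and nearly equal log2 fold changes of 0.61 ± 0.15 (95% interval 0.27 to 0.95, adjusted p = 0.23 by limma) and 0.61 ± 0.17 (0.23 to 0.99, adjusted p = 0.26). The brightest probe set (1433531_at) had 32508.5, 28425 and 30179 in deleted pools and 24356, 30295 and 21345 in control pools. There control pool 2 lay among the deleted pools, and the log2 fold change was 0.27 ± 0.14 (95% interval -0.041 to 0.59), or 0.16 without control pool 3.

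Acsl5, a synthetase of the mitochondria and endoplasmic reticulum, was measured by 1 bright probe set (1428082_at). Its signals were 38879, 42177 and 36573 in deleted pools and 32421, 31213 and 24684 in control pools. Every deleted pool was higher than every control pool, by a modest amount. The mean was 39210 ± 2817 in deleted pools and 29439 ± 4162 in control pools (SD, n = 3 each). The fold of the mean log2 values was 1.34, a log2 fold change of 0.42 ± 0.13 (95% interval 0.13 to 0.72) with an adjusted p of 0.32 by limma.

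Acsl3, the synthetase of nascent lipid droplets, had control pools on both sides of the deleted pools. Probe set 1452771_s_at had 9174, 10037 and 8375 in deleted pools and 12095, 6388 and 11166 in control pools. Probe set 1428386_at had 4823, 4642 and 4049 in deleted pools and 6072, 3570.5 and 5921 in control pools. Probe set 1428387_at had 608, 485.5 and 476 in deleted pools and 654, 435 and 593 in control pools. On each of them control pool 2 was the lowest of the 6 arrays and the other 2 control pools lay above the deleted mean. The log2 fold changes were -0.054 ± 0.22, -0.17 ± 0.20 and -0.088 ± 0.24, and without control pool 2 they were -0.34, -0.42 and -0.26, none past the threshold by limma (adjusted p of 0.26, 0.17 and 0.70, and up to 0.997 over the alternatives).

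The promoters of Acsl4 and Acsl5 are shown because these were the synthetase genes with probe sets whose groups did not overlap. The windows, motifs and capitals are as for Fabp1. Unlike that window, both lie wholly inside the RefSeq span of their gene, and the Acsl5 span begins at 55251861. Sequence at the outer start of either gene was not searched.
Acsl4 promoter, chrX:142390486-142390785, minus strand: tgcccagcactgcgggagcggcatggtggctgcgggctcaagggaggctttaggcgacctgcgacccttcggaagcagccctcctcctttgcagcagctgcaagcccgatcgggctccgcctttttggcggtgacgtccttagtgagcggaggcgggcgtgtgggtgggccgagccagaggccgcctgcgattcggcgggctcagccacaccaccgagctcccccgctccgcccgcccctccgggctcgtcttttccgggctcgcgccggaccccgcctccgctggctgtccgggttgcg
Acsl5 promoter, chr19:55253119-55253418, plus strand: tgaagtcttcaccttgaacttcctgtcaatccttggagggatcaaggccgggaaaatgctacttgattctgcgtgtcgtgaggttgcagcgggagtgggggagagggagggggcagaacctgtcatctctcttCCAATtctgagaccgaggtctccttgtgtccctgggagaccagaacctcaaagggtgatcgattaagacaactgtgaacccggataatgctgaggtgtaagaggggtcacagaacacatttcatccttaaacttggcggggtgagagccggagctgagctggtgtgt
The Acsl4 window held none of the 4 motifs. The Acsl5 window held 1 CCAAT box on the plus strand, starting at position -117, a motif present in 37.4% of promoter windows. The sterol regulatory element TCACNCCAC was present in 1.24% and the E-box in 7.15% of all windows, and neither was found in these 2 windows. Among the windows of the 8 genes of the set that had one, the sterol regulatory element was found in 1 Acsl1 window, on the minus strand at position -76, and Acsl1 has no expression value here.

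Slc27a4, the fatty acid transport protein of the endoplasmic reticulum, showed little difference. Its signals were 1684, 1602 and 1715 in deleted pools and 1556, 1850.1 and 1405 in control pools, with a log2 fold change of 0.064 ± 0.15 (95% interval -0.28 to 0.41). The control range enclosed all 3 deleted pools. Slc27a3 lay below the filter, at percentile 6.6 of all probe sets, with 28, 199.5 and 27.3 in deleted pools and 27.4, 16.2 and 20.7 in control pools. Its log2 difference was 1.35, and 0.40 without deleted pool 2, and it was not tested among the filtered probe sets. The probe sets just inside and just outside the filter were Fabp4 1425809_at, at percentile 49.9, and Fabp4 1424155_at, at percentile 24.4.

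**Figure D2:**
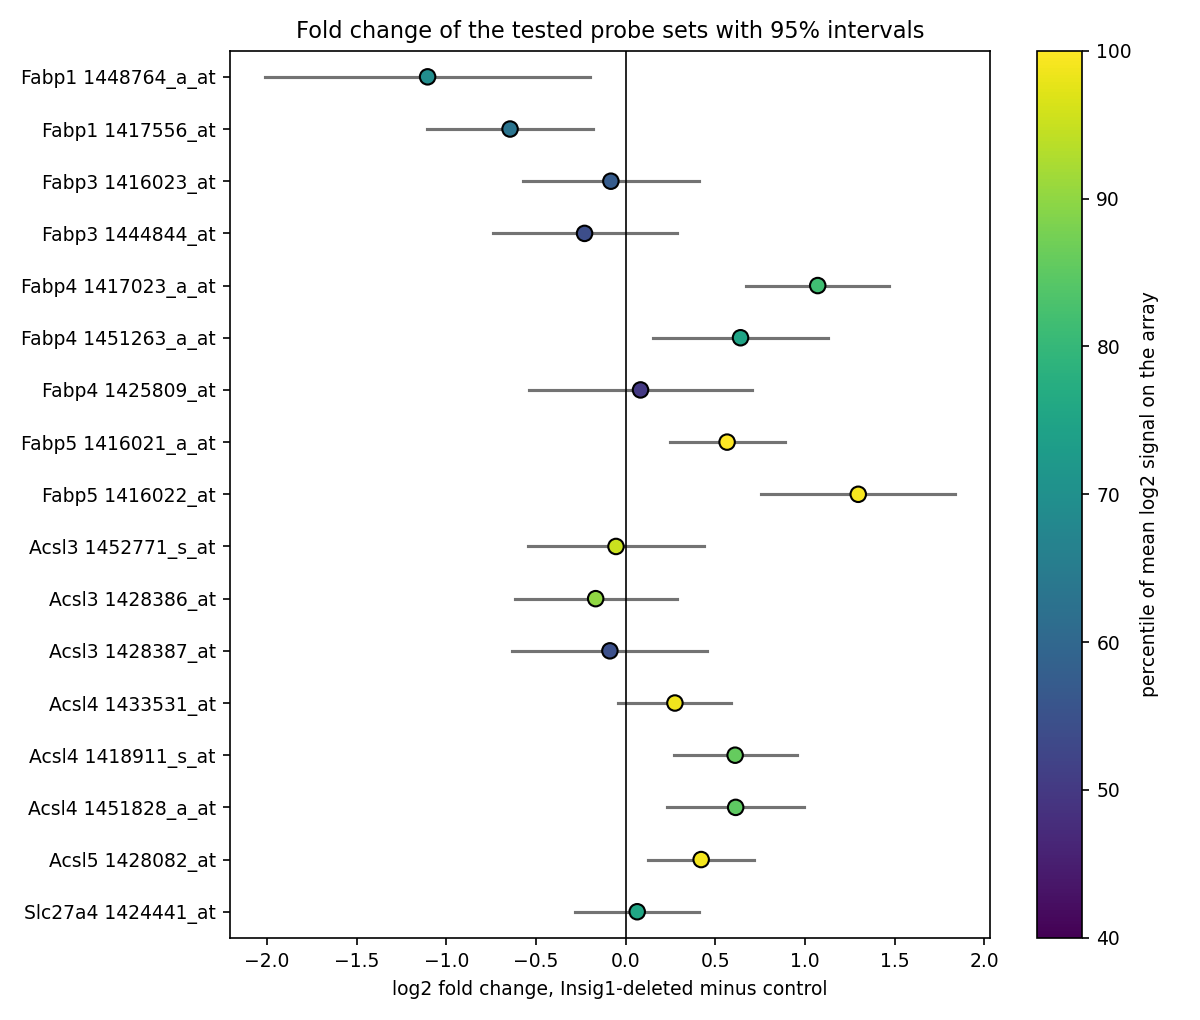
Log2 fold change (Insig1-deleted minus control) of the 17 tested probe sets with 95% intervals from limma, coloured by the percentile of their mean log2 signal on the array. The intervals of 9 probe sets lie wholly on 1 side of 0, above it for 7 of Fabp4, Fabp5, Acsl4 and Acsl5 and below it for both of Fabp1, and no probe set passed the adjusted threshold.

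Bright and dim probe sets were compared in precision and in response. Over all tested probe sets the median SE was 0.295 between the 40th and 60th percentile of signal, 0.192 between the 60th and 80th, 0.145 between the 80th and 95th and 0.125 above the 95th. The number of probe sets past the threshold in these 4 ranges was 5 of 9007, 20 of 9007, 39 of 6756 and 23 of 2252. The share past it thus rose with signal and was highest in the brightest range. The members were spread over all of them, with 4, 4, 4 and 5 probe sets. The dimmest range held both Fabp3 probe sets, the dimmest tested Fabp4 and the dimmest Acsl3 probe set, and the brightest range held both Fabp5 probe sets, Acsl5 and the brightest of Acsl4 and Acsl3.

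Whether a dimmer probe set responded differently from the brightest one of the same gene was tested on their per-array difference in log2 signal, in 1 limma fit over all 9691 such pairs. Of the 9 pairs within the set 0 passed an adjusted p of 0.05, as did 0% of all pairs, and 2 had an unadjusted p under 0.05, against 5.4% of all pairs. The groups did not overlap in 4 of the 9 pairs, 1 of Fabp4, 1 of Fabp5 and 2 of Acsl4, against 10.5% of all pairs. The 9 pairs came from 6 genes. Those of Fabp4, of Acsl3 and of Acsl4 share the brightest probe set of their gene, so the pairs are not independent. The 2 pairs with a small unadjusted p belonged to Fabp5 and Fabp4 and ran in opposite directions. For Fabp5 the log2 fold change of the dimmer probe set was higher by 0.73 ± 0.22 (95% interval 0.21 to 1.25, adjusted p = 0.82 by limma). The difference in log2 signal, dimmer minus brighter, was -1.19, -0.94 and -1.12 in deleted pools and -1.38, -2.06 and -2.002 in control pools. For Fabp4 the dimmest tested probe set differed from the brightest in log2 fold change by -0.99 ± 0.36 (95% interval -1.83 to -0.14, adjusted p = 0.90 by limma), and the middle one by -0.43 ± 0.22, or -0.24 without deleted pool 2.

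In Acsl4 both dimmer probe sets had larger log2 fold changes than the brightest, by 0.34 ± 0.17 each. The Acsl3 pairs differed by -0.11 ± 0.15 and -0.034 ± 0.19, the Fabp3 pair by -0.15 ± 0.24 and the Fabp1 pair by 0.46 ± 0.39. The Fabp1 value was 0.89 without deleted pool 1, 0.17 without deleted pool 2 and 0.25 without control pool 3. The median size of the difference was 0.34 over the 9 pairs and 0.16 over all pairs. In 0 of the 9 pairs, which came from 6 genes, did the dimmer and the brightest probe set have opposite signs, which 35.7% of all pairs did. Among all pairs whose brightest probe set lay above the 99th percentile of signal, as for Fabp5, the dimmer one had the larger log2 fold change in size in 68.6% of 350 pairs, against 57.6% of 1677 pairs whose brightest lay between the 95th and 99th percentile, as for Acsl4 and Acsl3, and 58.5% of 7664 pairs whose brightest lay below the 95th. This split by signal was chosen after the Fabp5 values were seen.

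**Figure D3:**
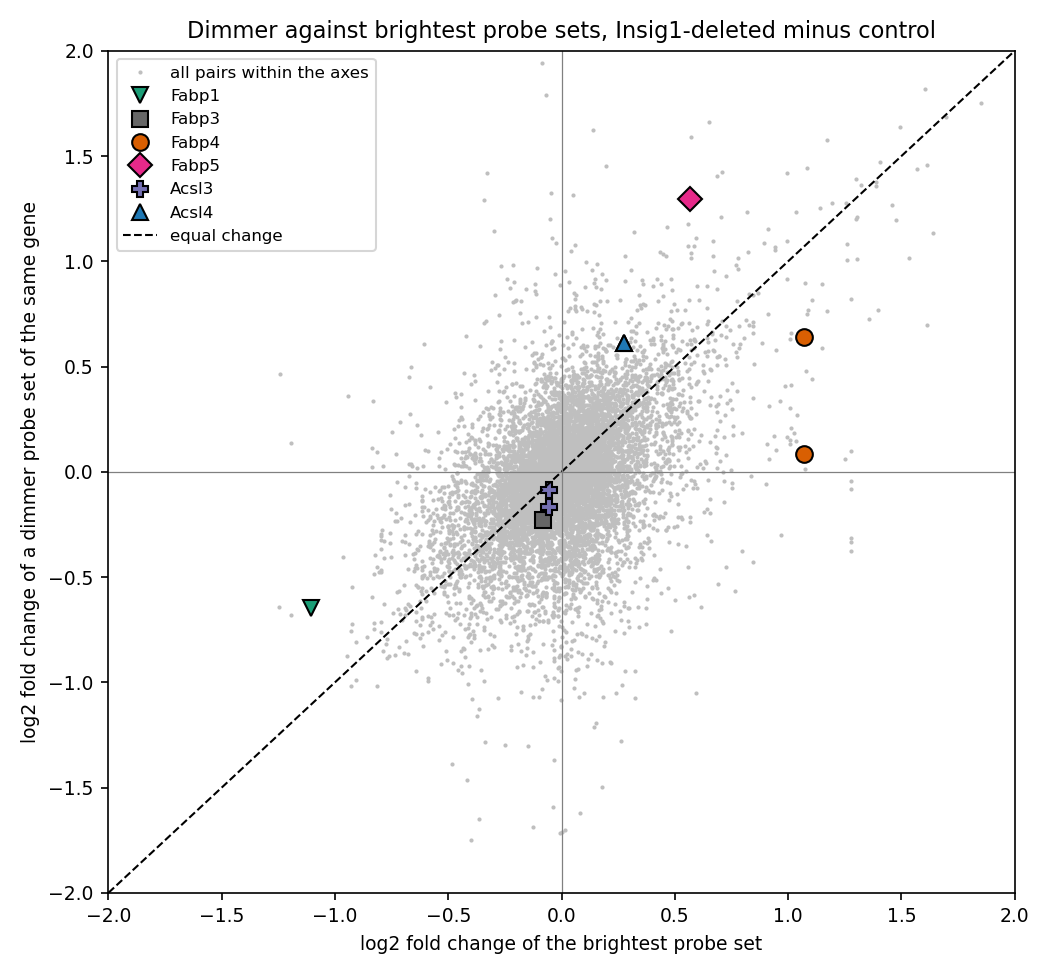
Log2 fold change (Insig1-deleted minus control) of the brightest probe set of a gene (horizontal) against that of a dimmer probe set of the same gene (vertical), in grey for all pairs within the axes and in colour for the 9 member pairs. Fabp5 and Acsl4 lie above the line of equal change, with the 2 Acsl4 pairs on top of each other, and both Fabp4 pairs lie below it.

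Most macrophage markers were higher in deleted pools, as were Fabp4 and Fabp5. In bulk isolates a change in the number of cells of a type and a change in RNA per cell cannot be told apart. Of 20 tested macrophage markers 9 rose and 0 fell by limma, where 0.625% of all genes tested rose and 0.0232% fell. Their median log2 fold change was 0.94, against -0.0049 over all genes. The macrophage glycoprotein gene Gpnmb had 1.86 ± 0.18 and the lysosomal protein gene Cd68 0.9996 ± 0.12 among these markers. Their summed signal was 259944 to 271516 in deleted pools and 161562 to 215048 in control pools, and without Lyz2, which type II cells also express, 141660 to 162770 in deleted pools and 61383 to 86153 in control pools. The count of 9 was 1 without deleted pool 1 or 2, 3 without deleted pool 3, 5 without control pool 1, 13 without control pool 2, 2 without the intensity trend and 14 with array weights. Trem2 lay below the filter, and Siglec5 and Ear2 had no probe set of their own name here. The macrophage sum was thus higher in every deleted pool than in every control pool, as were the signals of the brightest Fabp4 and both Fabp5 probe sets, and its part in these results was not tested.

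Markers of other cells that make Fabp4 gave these values, where 0.625% of all genes tested rose and 0.0232% fell at the threshold. Of 14 endothelial markers 1 rose, the carbonic anhydrase gene Car4 (log2 0.89 ± 0.14, adjusted p = 0.030), and Esam had 0.51 ± 0.14, while the list's median was -0.034. The endothelial sum was 64444 to 65880 in deleted pools and 58853 to 61697 in control pools. Without Car4 and Esam the other 12 markers summed to 41878 to 43647 in deleted pools and 41425 to 48984.5 in control pools and overlapped. Of 4 tested adipocyte markers none passed, with the adipokine gene Adipoq at 247 ± 31.5 in deleted pools and 506 ± 161 in control pools (log2 -0.997 ± 0.31) and Cidea at log2 -0.94 ± 0.38. Lep and Cidec lay below the filter, and the adipocyte sum was 2016 to 2575 in deleted pools and 2767 to 3398 in control pools. Without Adipoq and Cidea the other 2 tested markers summed to 1309.6 to 1895 in deleted pools and 1533 to 1636 in control pools and overlapped. Leaving these pairs of markers out was chosen after their values were seen. Type II cell markers had a median of 0.046 with 0 of 13 past the threshold. At an unadjusted p under 0.05, 2 were higher, Il33 (0.67 ± 0.27) and Muc1 (0.54 ± 0.23), where 12.1% of all genes had such a p in either direction. Of 12 airway markers 2 fell, against 0.0232% of all genes, Ccdc153 (-1.18 ± 0.16) and Sox2 (-0.83 ± 0.13), with a list median of -0.31 and 0 of 12 above 0. The airway list held the brightest probe set of every array. Its sum was 403388 to 536816 in deleted pools and 481388 to 645764 in control pools. Of 11 mesenchymal markers none passed, with Fn1 at 0.48 ± 0.19 and Tcf21 at -0.49 ± 0.21. Neither the endothelial nor the airway calls were made without deleted pool 1, 2 or 3 or without the intensity trend. The endothelial call was also lost without control pool 1. Without control pool 1 the airway count was 1, and without control pool 2 it was 4, the endothelial count 2, and the adipocyte and type II cell counts 1 each.

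**Figure D4:**
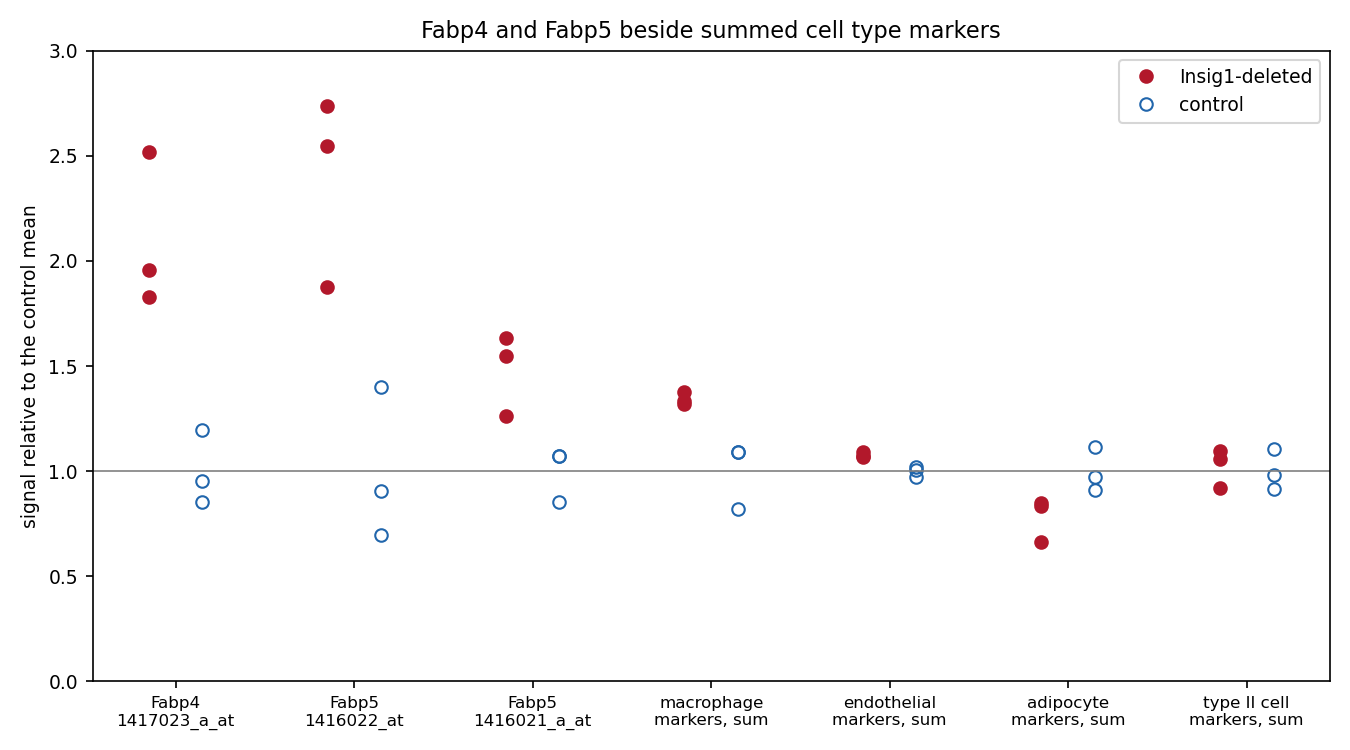
Signal in each pool divided by the mean of the 3 control pools, for the brightest Fabp4 probe set, both Fabp5 probe sets and the summed signals of 4 marker lists, with filled red circles for Insig1-deleted pools and open blue circles for control pools. The deleted pools lie above the control pools for Fabp4, Fabp5 and the macrophage sum, above them for the endothelial and below them for the adipocyte sum, both of which overlap without the 2 markers named in the text, and among them for the type II cell sum.

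Other genes that handle fatty acids were read from lists, each gene by its brightest probe set. Over all genes tested 0.625% rose at the adjusted threshold. Of 7 tested synthetases and transport proteins outside the set 2 rose, both of which activate short acids, with Aacs, which activates acetoacetate, at log2 1.53 ± 0.16 (adjusted p = 0.0041 by limma) and Acss2, which activates acetate, at 0.67 ± 0.12 (adjusted p = 0.042). Of the 18 listed genes 8 lay below the filter, Acsl6, Acsbg1 and Acsbg2 among them, and 3 had no probe set of their own name. The count of 2 that rose was 1 without any 1 of the deleted pools or control pool 1. It was also 1 with quantile normalization, without the intensity trend, without the filter and with the mean over probe sets. Of 11 listed binding proteins and relatives outside the set 2 were tested, Fabp12 and the retinoic acid binding protein gene Crabp2 (0.69 ± 0.61), and neither passed.

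Of 9 tested genes of fatty acid uptake 1 rose, against 0.625% of all genes, the endothelial lipase gene Lipg (log2 1.08 ± 0.18, adjusted p = 0.036 by limma). Its signals were 2306, 2826 and 2250.4 in deleted pools and 1158, 1408.5 and 942 in control pools, without overlap. No gene of this list passed without deleted pool 1, 2 or 3 or control pool 1 or without the intensity trend, 2 passed without control pool 2, with array weights, with the 60th percentile filter or with the mean over probe sets, and 3 of the 9 had an unadjusted p under 0.05, all higher. None of 14 genes of acyl-CoA binding and hydrolysis passed, with 2 higher at an unadjusted p under 0.05, Acot7 (0.40 ± 0.15) and Acot2 (0.49 ± 0.20). Over all genes tested 12.1% had an unadjusted p under 0.05 in either direction.

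For scale, 15 of 17 tested cholesterol synthesis genes rose in the same fit, against 0.625% of all genes. Their median log2 fold change was 1.31, and Lss among them had 2.22 ± 0.13. Fabp4 had 1.07 and the brightest Acsl5, Acsl4 and Acsl3 probe sets 0.42, 0.27 and -0.054. The count of 15 was 4 without deleted pool 2, 7 without deleted pool 1 and 9 without deleted pool 3. It was 6 without the intensity trend and 16 with array weights.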

How the data were processed

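RNA of type II cell isolates was measured on 1-colour Affymetrix arrays, 3 pools of each genotype. The deposited values are linear intensity signals of 45101 probe sets, made by the authors with MAS5 per the submitters' processing notes, and each array had the same trimmed mean. Signals were raised to at least 1 and turned to log2, and no further scaling was applied to the deposited intensity. Probe sets under the 40th percentile of mean log2 signal and 64 controls were left out. limma 3.58.1 in R 4.3.3 (lmFit, eBayes with an intensity trend, Benjamini-Hochberg at 0.05) was fitted to 27022 probe sets, to 12952 genes by their brightest probe set, and, without the trend, to 9691 differences between a dimmer probe set and the brightest of its gene. The brightest was chosen on all 6 arrays. The probe set fit and the pair fit were tested on simulated data, and the gene-level fit was not. At a true log2 change of 1 the probe set fit recovered 44% and the pair fit 28% of changed features. At a true log2 change of 0.5 the shares were 2% and 0%. Of the calls made, 7 of 110 and 6 of 95 were false. The simulated errors were independent and equally spread on all 6 arrays. In the data the array weights ran from 0.48 to 2.08, so these shares describe simpler data than these.

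Gene names came from the platform annotation, which gave 1 gene to 34945 probe sets, several to 932 and none to 9160. All 10 symbols were found in RefSeq (GRCm38.p6), whose promoter table held windows for 8 of them, without Fabp4 and Fabp5. The members and all gene lists were chosen with earlier results of these data known. All members are named. Of each lipid list the genes past the threshold are named, at most 4 by smallest p, or the 2 with the smallest p if none passed, and of each marker list the 2 with the smallest p. Other listed genes are named only as below the filter or without a probe set. Alternatives were another scaling, offset, filter, variance model or array weighting, a replicate block, the mean over probe sets, and leaving out each pool. An exact permutation test of 3 against 3 cannot go below p = 0.1 and was not used. Intensities give no read depth, and the number of arrays limits the precision.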

Additional observations from a re-analysis of the deposited data

How the results depend on the processing

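The 0 member probe sets past the threshold became 1 with a common median, with log2 of signal plus 16 and with a stricter 60th percentile filter (Fabp4 each time), and 2 with array weights (Fabp4 and Fabp5). Leaving out 1 pool in turn gave 0 to 1. The 1 member gene past the threshold, Fabp4, became 0 without the intensity trend and with the mean over probe sets (log2 0.60), and 0 to 1 with 1 pool left out. The cause of these shifts was not tested. Over all probe sets 87 passed, against 131 with a common median, 4 without the intensity trend, 170 with array weights, and 3 to 461 with 1 pool left out, 3 without deleted pool 2 and 461 without control pool 2. With the replicate number as a block 145 passed, while the member counts stayed at 0 probe sets and 1 gene. The labels do not pair the pools, whose deviations correlated at 0.107, 0.0538 and 0.133 by number, and every array correlated best with its own number. Of the pairs of probe sets 0 passed under any setting run. Signs reversed only for small differences. Acsl3 1452771_s_at had log2 0.025 with a common median, and its pair with 1428387_at 0.085 with quantile normalization. With 1 pool left out the ranges that crossed 0 were -0.34 to 0.12 for Acsl3 1452771_s_at, -0.26 to 0.033 for Acsl3 1428387_at, -0.21 to 0.024 for Fabp3 1416023_at, -0.092 to 0.25 for Fabp4 1425809_at and -0.026 to 0.17 for Slc27a4. The same range was -0.15 to 0.081 for the Acsl3 pair above and -0.34 to 0.11 for the Fabp3 pair. Fabp1, Fabp5, Acsl4, Acsl5 and the 2 brightest Fabp4 probe sets kept their direction under every setting run. Over all probe sets the median SE was higher at dim signal, though the widest of the set was that of the brighter Fabp1 probe set (0.40), and Slc27a3 and 1 Fabp4 probe set were too dim to test.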
